A study of Mus musculus with 8 samples.

Results

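The 8 genes described here are the peptidylarginine deiminase genes Padi1, Padi2, Padi3 and Padi4 and the genes Greb1, Gal, Ckb and Alpl, known as genes that respond to estrogen. They were chosen by name, with earlier results of these data known, as the rows of the array table that carry 1 of these gene symbols and no other. Each of the 8 had a single probe set, and they are 8 of 19938 genes measured with 1 symbol. Whole uteri of 8 female mice were hybridised to 1 array each. The 4 controls were Pgr+/+ Foxa2+/+. The 4 Foxa2-deleted females were PgrCre/+ Foxa2flox/flox, so that Cre recombinase was made from an allele of the progesterone receptor gene, and they differed from the controls in Cre and in that allele as well as in Foxa2. All females had been paired with vasectomised males and were killed on day 3.5 of pseudopregnancy, with the vaginal plug counted as day 0.5. The labels used here state no ages. Cre from this allele acts wherever the progesterone receptor gene is active, which in the uterus includes epithelium, stroma and muscle, so the deletion is not limited to glands. In whole tissue, fewer cells of a type and less RNA per cell cannot be told apart.

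Peptidylarginine deiminases are calcium-dependent enzymes that convert arginine residues of proteins into citrulline, which removes a positive charge. PADI1 and PADI3 are known from skin and hair, where they act on keratins, filaggrin and trichohyalin, PADI2 is widely expressed, and PADI4 is abundant in granulocytes, where it citrullinates histones. In the rodent uterus deiminase activity is known to follow the estrous cycle and to rise with estrogen. Greb1 encodes a cofactor of the estrogen receptor, Gal the neuropeptide galanin, Ckb the brain-type creatine kinase that was described as an estrogen-induced protein of the rat uterus, and Alpl the tissue-nonspecific alkaline phosphatase. During early pregnancy the receptive uterus is dominated by progesterone, which restrains the response of the epithelium to estrogen.

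The targeted gene, Foxa2, stood at 8.61, 8.82, 8.74 and 8.73 in control replicates 1 to 4 and at 8.22, 8.20, 8.21 and 8.21 in deleted replicates 1 to 4, a log2 change of -0.52 (SE 0.05, adjusted p = 0.0013, limma). Every library thus had the Foxa2 level its label implies, although no source used here says whether the probe set lies in the deleted stretch.

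Of the 8 genes, 5 were higher in Foxa2-deleted uteri and none was lower, where a call means a limma p below 0.05 after Benjamini-Hochberg adjustment over all 19938 genes. The 5 were Alpl, Padi1, Padi2, Padi4 and Greb1, in order of their log2 change. Over all genes 4.5% were higher and 6.58% lower by the same rule, and 11.1% changed in either direction. The genome-wide split of 898 higher and 1311 lower genes moved to 1082 and 982 with each array centred on its median, to 1011 and 939 with quantile normalisation and to 960 and 949 with cyclic loess, while the calls of the 8 genes stayed. All 5 were both called and at least 2-fold higher, which held for 0.818% of all genes. In the same 5 genes every deleted uterus lay above every control, which held for 9.55% of all genes, while a separation in either direction held for 21.1%. The median log2 change was 1.25 over the 8 genes and 0.01 over all genes. Padi3, Gal and Ckb did not pass the test. Intensities are log2 values from RMA, and their level cannot be compared between probe sets of different genes. Changes are measured within a probe set, but probe sets can compress a change to different degrees, so a difference in change between genes is one of measured values.

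**Figure D1:**
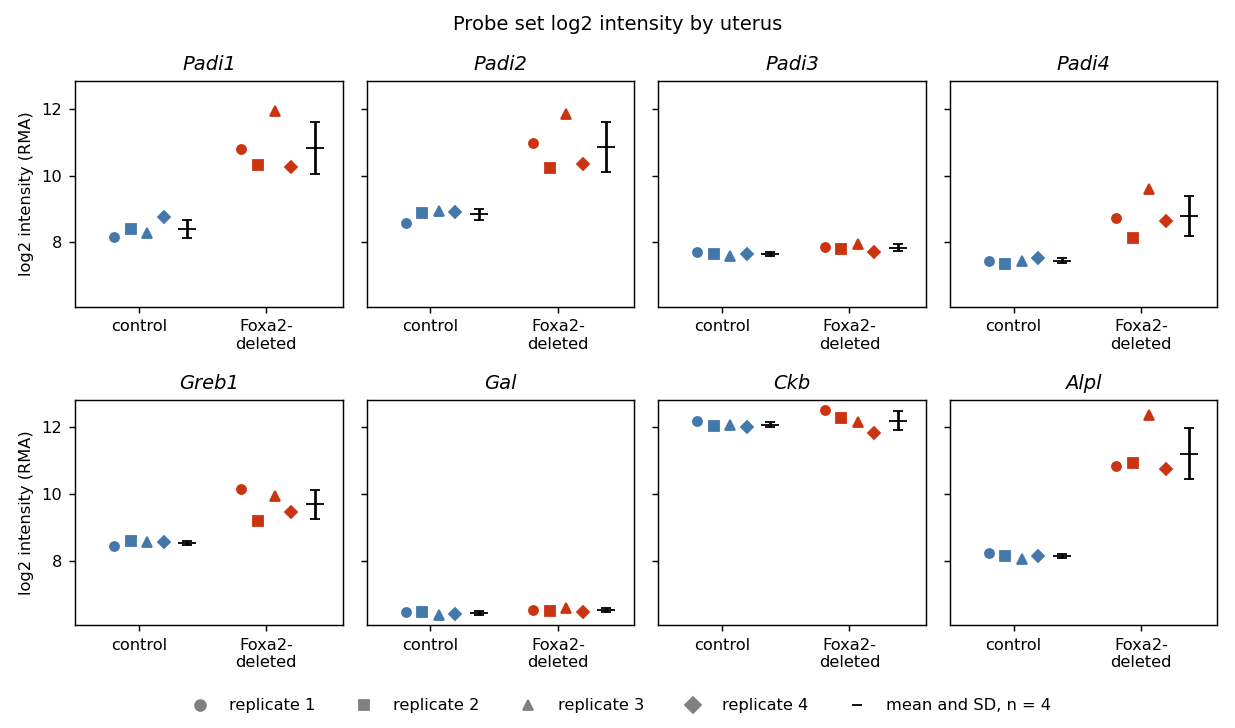
RMA log2 intensity (vertical axis, shared by all panels) of the 8 genes in 4 control and 4 Foxa2-deleted uteri, with a marker shape for each replicate number and black bars for the mean and SD of each group. Every deleted uterus lies above every control for Padi1, Padi2, Padi4, Greb1 and Alpl, and the groups overlap for Padi3, Gal and Ckb.

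Padi1 had log2 intensities of 8.15, 8.40, 8.27 and 8.76 in control replicates 1 to 4 and of 10.81, 10.31, 11.94 and 10.27 in deleted replicates 1 to 4. All deleted uteri were high, the third the most, and a gap of 1.51 lay between the groups. The log2 intensity of Padi1 rose by 2.44 (SE 0.34, adjusted p = 0.00601, limma), a 5.42-fold increase and the 27th largest of all genes. Below, every change is such a log2 difference. Padi2, which encodes the widely expressed deiminase, had 8.58, 8.89, 8.94 and 8.92 in the controls and 10.98, 10.23, 11.86 and 10.34 in the deleted uteri. Its groups lay 1.29 apart, and again the third deleted uterus was the highest. Padi2 rose by 2.02 (SE 0.32, adjusted p = 0.00995, limma), or 4.06-fold.

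Padi4, the granulocyte deiminase gene, had 7.45, 7.36, 7.44 and 7.53 in the controls and 8.72, 8.14, 9.59 and 8.65 in the deleted uteri. The controls lay close together, and the lowest deleted uterus, the second, was 0.61 above the highest of them. Padi4 rose by 1.33 (SE 0.25, adjusted p = 0.0169, limma), or 2.51-fold. This call was lost without control replicate 2, 3 or 4, with adjusted p from 0.0524 to 0.0585, while the change stayed between 1.30 and 1.36. Padi3, which encodes the deiminase of the hair follicle, had 7.72, 7.64, 7.59 and 7.64 in the controls and 7.87, 7.81, 7.95 and 7.70 in the deleted uteri. Its groups overlapped, since the fourth deleted uterus lay just under the first control. The change of Padi3 was 0.19 (SE 0.06, 95% interval 0.05 to 0.32, adjusted p = 0.0801, limma) and did not pass, although it passed without Foxa2-deleted replicate 4 (0.23, adjusted p = 0.0332). Padi6, the remaining gene of the family and known as the deiminase of the oocyte, is not among the 8 genes and changed by 0.10 (SE 0.06, adjusted p = 0.309, limma), with 6.67 to 6.90 in controls and 6.87 to 6.99 in deleted uteri.

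The measured changes of the 4 deiminase genes were not of the same size. The log2 difference between 2 of the genes was taken within each array and compared between the genotypes for all 6 pairs with a two-sided exact permutation test over 70 arrangements, whose smallest possible p is 0.029. The change of Padi1 exceeded that of Padi3 by 2.25 and that of Padi4 by 1.11, and the change of Padi2 exceeded that of Padi3 by 1.83 and that of Padi4 by 0.69. The change of Padi4 exceeded that of Padi3 by 1.14. Each of these 5 differences had p = 0.029 (exact permutation test) and an adjusted p of 0.034 over the 6 pairs, and its values in the 4 deleted uteri did not overlap those of the 4 controls. Padi1 and Padi2 differed by 0.42 (SD of the within-array difference 0.21 in controls and 0.12 in deleted uteri, n = 4 each), with p = 0.057 and adjusted p = 0.057 (exact permutation test), which did not pass.

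The Padi genes stand side by side on chromosome 4 of the mouse, and in gene order Padi6 comes first, then Padi4, Padi3, Padi1 and Padi2, with no other tested gene between them. Padi3, which did not pass, thus lies between Padi4 and Padi1, which rose. Of the 4 tested genes next to the cluster on each side, 1 rose and 1 fell, where 4.5% of all genes were called higher and 6.58% lower. Arhgef10l, a guanine nucleotide exchange factor gene, rose by 0.21 (SE 0.06, adjusted p = 0.0475, limma), and Klhdc7a fell by 0.38 (SE 0.06, adjusted p = 0.0104, limma). The genes adjoining the cluster were Rcc2, a chromosome condensation regulator gene, with a change of 0.09 (SE 0.05, adjusted p = 0.264, limma), and Sdhb, a subunit gene of succinate dehydrogenase, with 0.08 (SE 0.06, adjusted p = 0.385, limma). Igsf21, Atp13a2 and Crocc changed by 0.02, -0.01 and -0.04 and did not pass. Mfap2, a microfibril gene, had the largest change among these neighbours, 0.66 (SE 0.32, adjusted p = 0.194, limma), but its controls alone ran from 10.17 to 11.64. Alpl lies on the same chromosome with 42 tested genes between it and the cluster.

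**Figure D2:**
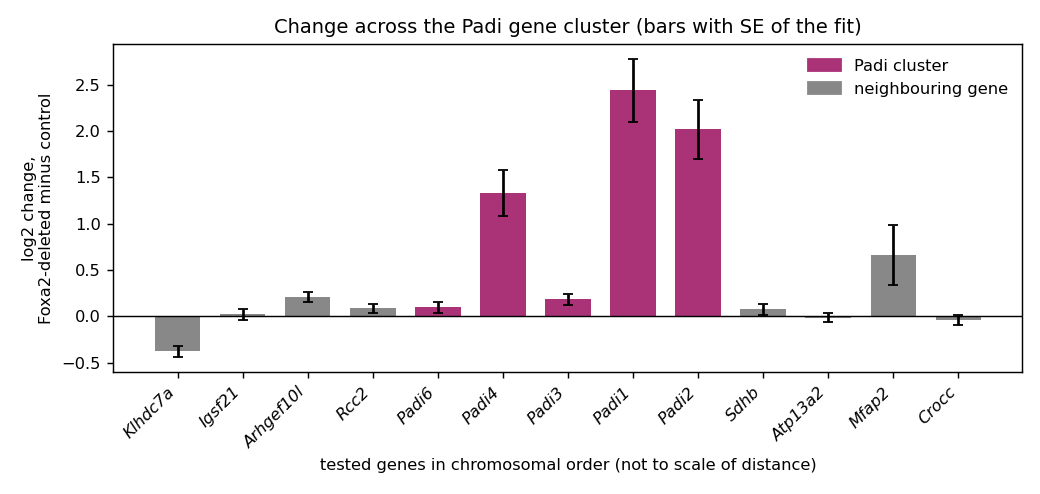
Log2 change (Foxa2-deleted minus control, vertical axis) of the 5 Padi genes and of the 4 tested genes on each side, in the order of the genes along the chromosome and not to scale of distance, with the SE of the limma fit as error bars. Padi4, Padi1 and Padi2 stand at 1.33, 2.44 and 2.02. Padi3 and Padi6 stand at 0.19 and 0.10, within the range of the flanking genes outside the family, from -0.38 for Klhdc7a to 0.66 for Mfap2.

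The stretches before the starts of the 4 Padi genes are shown because these adjacent genes changed unequally, and those of Greb1 and Gal because they carry the same estrogen receptor motif but differed in their test result. Each is the 120 bases before the start in RefSeq on GRCm38.p6, 5′ to 3′ along the gene, and for Greb1 the start furthest upstream of 2. Padi1 lies at chr4:140845779-140845898 on the minus strand, Padi2 at chr4:140906240-140906359 on the plus strand, Padi3 at chr4:140810649-140810768 on the minus strand and Padi4 at chr4:140774204-140774323 on the minus strand. Greb1 lies at chr12:16800887-16801006 and Gal at chr19:3414545-3414664, both on the minus strand. Capitals mark every match, on either strand, to 6 motifs, which were the palindromic estrogen response element GGTCANNNTGACC, its single arm GGTCA, the forkhead core TGTTTAC, the AP-1 site TGAGTCA, the TATA box TATAAA and the GC box GGGCGG. A match on the other strand appears as its reverse complement. The arm is part of the palindrome, and the other motifs have no such overlap.
Padi1: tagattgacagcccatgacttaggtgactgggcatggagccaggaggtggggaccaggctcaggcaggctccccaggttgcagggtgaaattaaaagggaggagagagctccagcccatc
Padi2: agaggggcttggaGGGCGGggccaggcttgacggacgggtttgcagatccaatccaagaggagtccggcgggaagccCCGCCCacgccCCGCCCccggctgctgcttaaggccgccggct
Padi3: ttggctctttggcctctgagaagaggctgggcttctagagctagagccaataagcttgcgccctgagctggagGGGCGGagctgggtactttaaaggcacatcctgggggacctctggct
Padi4: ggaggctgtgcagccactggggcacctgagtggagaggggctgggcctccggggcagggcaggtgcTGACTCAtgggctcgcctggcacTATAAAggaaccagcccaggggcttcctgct
Greb1: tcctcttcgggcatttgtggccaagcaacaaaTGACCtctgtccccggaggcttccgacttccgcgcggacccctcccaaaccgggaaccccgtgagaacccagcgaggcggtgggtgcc
Gal: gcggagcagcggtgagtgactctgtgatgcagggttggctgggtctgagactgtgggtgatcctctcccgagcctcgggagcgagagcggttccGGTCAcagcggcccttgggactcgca

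The motifs were counted in the 250 bases before each start, for all 8 genes and for 32851 RefSeq starts. None of the 8 genes held the palindromic element, which 0.0639% of all windows held, or the forkhead core, which 3.17% held. The arm GGTCA was in 35.2% of all windows. It was in those of Greb1, Gal and Alpl and in none of the 4 Padi genes or Ckb. Padi4 held 1 AP-1 site, found in 4.46% of all windows, and Padi4 and Ckb held a TATA box at their first start, found in 12.4%. Padi2 held 3 GC boxes and Padi3, Gal and Alpl at least 1 each, against 32.7% of all windows. The window of Padi1, whose increase was the largest of the family, held none of the 6. A match is only a run of letters, and these windows leave out distant elements.

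Most genes of proteins that deiminases are known to act on did not pass, as held for most of all genes. Of 15 substrate genes measured, 1 rose, none fell and 14 did not pass, with a median change of 0.06, against 11.1% of all genes called. The 1 that rose was Mbp, the myelin basic protein gene, by 0.24 (SE 0.06, adjusted p = 0.0427, limma). The trichohyalin gene Tchh and the keratin genes Krt1 and Krt10 changed by 0.06 (SE 0.05), 0.17 (SE 0.07) and 0.20 (SE 0.11) and did not pass. Tchh, Krt1 and Krt10 were named after their values were seen. The filaggrin gene Flg was not among the genes measured. Other keratin genes are not in this list, and some of them rose, as given with the epithelial markers below.

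Alpl, whose product releases phosphate from extracellular pyrophosphate and pyridoxal phosphate, had the largest change of the 8 genes. It stood at 8.24, 8.13, 8.06 and 8.14 in the controls and at 10.83, 10.92, 12.36 and 10.75 in the deleted uteri. The groups lay 2.51 apart, the widest gap of the 8 genes, and the third deleted uterus stood clear of the other deleted uteri. Alpl rose by 3.07 (SE 0.32, adjusted p = 0.00163, limma), or 8.41-fold, the 13th largest increase of all genes. Without the third deleted uterus the increase was 2.69 (adjusted p = 6.46e-07, limma). Of 9 other alkaline phosphatase and mineral phosphate genes measured, 1 rose, 1 fell and 7 did not pass, with a median change of 0.11. Over all genes 4.5% were called higher and 6.58% lower. Akp3, an intestinal-type alkaline phosphatase gene, rose by 0.18 (SE 0.05, adjusted p = 0.0399, limma), from 7.66 ± 0.06 (SD, n = 4) to 7.84 ± 0.03 (SD, n = 4). Its levels are below the array medians of 8.25 to 8.32, and whether they lie above background is unknown. Mgp, an inhibitor of calcification, fell by 0.61 (SE 0.14, adjusted p = 0.0289, limma). The other alkaline phosphatase genes, Alppl2 and Alpi, which were named after their values were seen, changed by 0.11 (SE 0.04, adjusted p = 0.116, limma) and 0.16 (SE 0.06, adjusted p = 0.100, limma).

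Greb1 stood at 8.44, 8.58, 8.56 and 8.55 in the controls and at 10.16, 9.19, 9.95 and 9.47 in the deleted uteri. Here the first deleted uterus was the highest, the second was the lowest, and the groups lay 0.61 apart. Greb1 rose by 1.16 (SE 0.19, adjusted p = 0.0105, limma), or 2.23-fold, and was called without any 1 array (adjusted p up to 0.0397). Of 16 estrogen receptor, GREB1-related and cofactor genes besides it, 2 rose, none fell and 14 did not pass, with a median change of 0.04. Over all genes 4.5% were called higher and 6.58% lower. Esr2, which encodes estrogen receptor beta, rose by 0.21 (SE 0.05, adjusted p = 0.0394, limma), from 7.10 ± 0.08 (SD, n = 4) to 7.31 ± 0.04 (SD, n = 4). Both levels are below the array medians of 8.25 to 8.32, and whether this probe set lies above background is unknown. Pgr, itself induced by estrogen and the locus of Cre in the deleted females, rose by 0.37 (SE 0.10, adjusted p = 0.0428, limma). Named after their values were seen, Esr1, the main uterine estrogen receptor gene, changed by 0.10 (SE 0.06, 11.87 in controls and 11.97 in deleted uteri, adjusted p = 0.310, limma), and Greb1l, the close relative of Greb1, by 0.02 (SE 0.13, adjusted p = 0.948, limma).

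Gal, the neuropeptide gene, had log2 intensities of 6.47, 6.47, 6.38 and 6.39 in the controls and of 6.53, 6.48, 6.59 and 6.46 in the deleted uteri. The groups overlapped. Its change was 0.09 (SE 0.05, 95% interval -0.02 to 0.20, adjusted p = 0.2425, limma). No detection call accompanies the values, so whether the probe set lies above background is unknown. The galanin receptor genes and the gene of the galanin-like peptide did not pass either. Galr3 changed by 0.19 (SE 0.06, adjusted p = 0.0727, limma), Galr1 by 0.12 (SE 0.05, adjusted p = 0.149, limma), Galr2 by -0.10 (SE 0.05, adjusted p = 0.230, limma) and Galp by 0.05 (SE 0.05, adjusted p = 0.524, limma). Of these, Galr3 had deleted uteri all above the controls, at 8.48 to 8.66 against 8.34 to 8.43.

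Ckb, whose product regenerates ATP from phosphocreatine, had log2 intensities of 12.19, 12.05, 12.07 and 12.01 in the controls and 12.53, 12.29, 12.17 and 11.83 in the deleted uteri. The deleted uteri lay on both sides of the controls, with the first above all of them and the fourth below. Its change was 0.13 (SE 0.13, 95% interval -0.17 to 0.42, adjusted p = 0.529, limma), and it ran from 0.02 without Foxa2-deleted replicate 1 to 0.25 without replicate 4. The interval excludes an increase of 2-fold. None of the 6 other creatine genes passed (median change 0.05). Ckmt1, the ubiquitous mitochondrial creatine kinase gene, had deleted uteri all above the controls, at 9.85, 9.32, 10.96 and 9.36 against 8.76 to 9.13, with a change of 0.93 (SE 0.32, adjusted p = 0.0924, limma). The muscle creatine kinase gene Ckm changed by 0.20 (SE 0.09, adjusted p = 0.180, limma), the mitochondrial muscle form Ckmt2 by 0.03 (SE 0.05, adjusted p = 0.728, limma) and the creatine transporter gene Slc6a8 by 0.05 (SE 0.09, adjusted p = 0.717, limma). Of the creatine synthesis genes, Gatm changed by 0.05 (SE 0.10, adjusted p = 0.788, limma) and Gamt by -0.52 (SE 0.19, adjusted p = 0.109, limma). In Gamt the second deleted uterus, at 10.11, lay above the controls, and the others were at 9.35 or less.

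**Figure D3:**
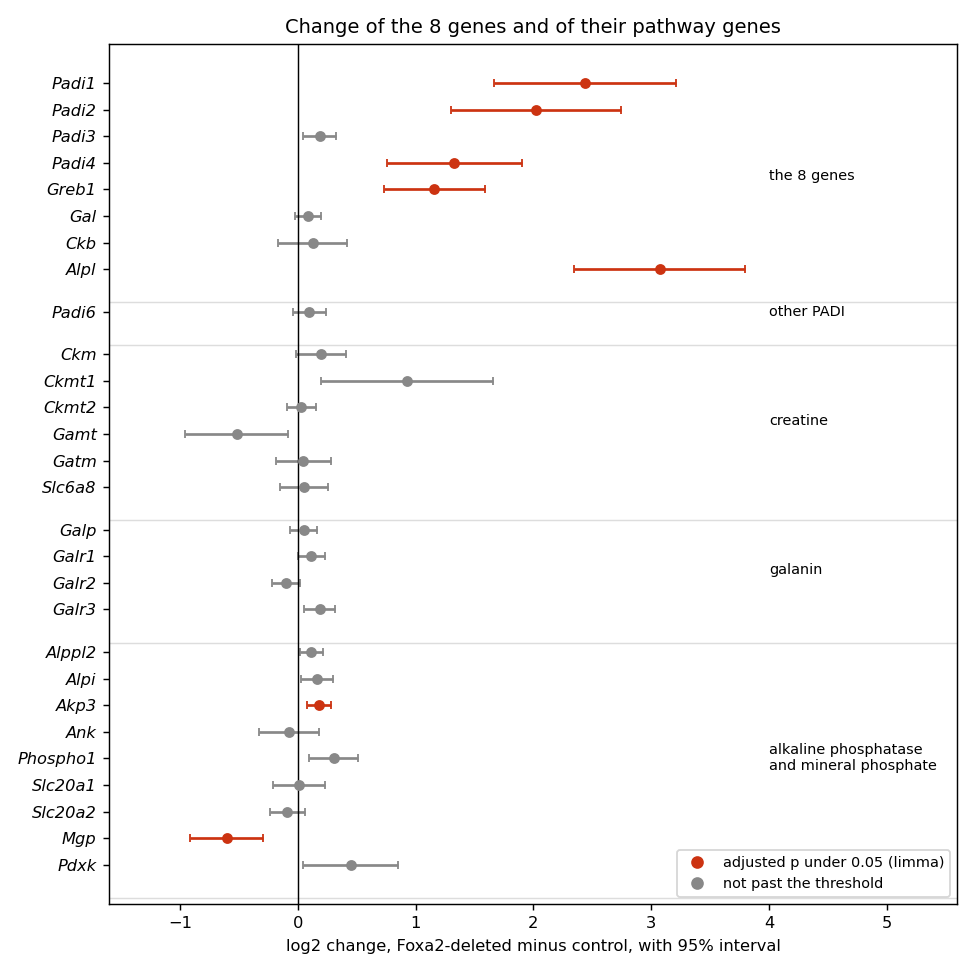
Log2 change (Foxa2-deleted minus control, horizontal axis) with its 95% interval from limma for the 8 genes and for other genes of the deiminase, creatine, galanin and phosphate lists, in red where the adjusted p was under 0.05. Padi1, Padi2, Padi4, Greb1 and Alpl lie between 1.16 and 3.07, and outside the 8 genes only Akp3 at 0.18 and Mgp at -0.61 pass.

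The deleted uteri differed from each other in the genes that rose. Relative to the control mean, Padi1 lay at 2.42, 1.92, 3.54 and 1.88 in deleted replicates 1 to 4, Padi2 at 2.15, 1.40, 3.03 and 1.51, and Padi4 at 1.28, 0.70, 2.14 and 1.21. Alpl lay at 2.69, 2.78, 4.22 and 2.61, and Greb1 at 1.63, 0.66, 1.42 and 0.94. Replicate 3 was thus the highest in Padi1, Padi2, Padi4 and Alpl but not in Greb1, and replicate 2 the lowest in Padi2, Padi4 and Greb1. The SD over deleted uteri was 2.95 times that over controls for Padi1, 4.41 times for Padi2, 8.65 times for Padi4, 7.03 times for Greb1 and 10.3 times for Alpl, differences in spread that were not tested. Without replicate 3 the changes were 2.07 (adjusted p = 5.29e-04, limma) for Padi1, 1.68 (adjusted p = 0.00164, limma) for Padi2, 1.06 (adjusted p = 0.00325, limma) for Padi4 and 1.07 (adjusted p = 0.0154, limma) for Greb1.

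**Figure D4:**
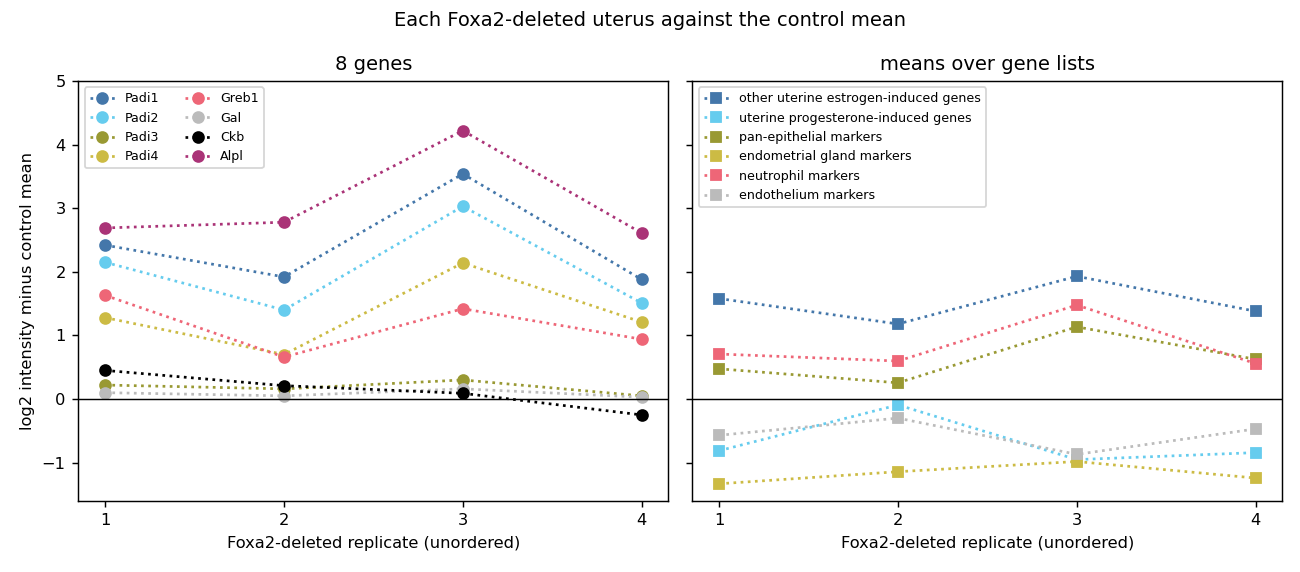
Log2 intensity minus the control mean (vertical axis) in each of the 4 Foxa2-deleted uteri (horizontal axis, replicates without an order, joined by dotted lines to guide the eye), for the 8 genes on the left and for the mean over gene lists on the right. Replicate 3 is the highest for Alpl, Padi1, Padi2 and Padi4, at 4.22, 3.54, 3.03 and 2.14, and for the estrogen-induced, neutrophil and pan-epithelial lists, at 1.93, 1.48 and 1.13.

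Other hormone-responsive genes were measured beside them, in lists chosen with earlier results of these data known. Over all genes 4.5% were called higher and 6.58% lower. Of 26 other genes known to be induced by estrogen in the uterus, 15 rose, 1 fell and 10 did not pass (median change 1.02). Their mean lay 1.58, 1.18, 1.93 and 1.38 above the control mean in deleted replicates 1 to 4. Clca1, Lcn2 and Ltf had changes of 4.55 (SE 0.32), 4.25 (SE 0.12) and 4.18 (SE 0.25), larger than that of Alpl. The 1 that fell was Egr1, an immediate early gene, by 0.60 (SE 0.15, adjusted p = 0.0391, limma), named after its values were seen. Of 20 progesterone-induced genes none rose, 8 fell and 12 did not pass (median change -0.52). Their mean lay at -0.81, -0.09, -0.95 and -0.84, so that replicate 2 stayed nearest the controls. Ihh, Fst and Zbtb16 had changes of -0.76 (SE 0.16), -1.40 (SE 0.30) and -1.46 (SE 0.33).

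Markers of other cell types were counted in the same uteri, and their counts stand against the 4.5% of all genes called higher and 6.58% lower. Of 15 neutrophil markers measured, 3 rose, Ltf, Cxcr2 and Ly6g, none fell and 12 did not pass (median change 0.27), and Ltf is also a product of estrogen-stimulated epithelium. The list mean was 7.43 to 7.60 in controls and 8.09 to 9.01 in deleted uteri. Without Ltf it was 7.39 to 7.56 against 7.93, 7.87, 8.73 and 7.82 in deleted replicates 1 to 4. Replicate 3 was thus the highest, as in Padi1, Padi2, Padi4 and Alpl. Replicates 1, 2 and 4 lay close together in this mean, and their order was not compared with that in Padi4. Cxcr2, a chemokine receptor of granulocytes, rose by 2.33 (SE 0.43, adjusted p = 0.0154, limma), and Ly6g by 1.21 (SE 0.25, adjusted p = 0.0212, limma). The calprotectin genes S100a8 and S100a9 changed by 0.93 (SE 0.29, adjusted p = 0.0696, limma) and 0.99 (SE 0.30, adjusted p = 0.0688, limma), and the granule genes Elane, Mpo, Camp and Ngp by 0.11, 0.13, 0.09 and -0.01, all not past the threshold and named after their values were seen. The part of neutrophils in the change of Padi4 was not tested.

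Of 15 pan-epithelial markers 5 rose, none fell and 10 did not pass (median change 0.57), with a list mean of 9.92 to 10.06 in controls and 10.24 to 11.12 in deleted uteri. Krt19, Elf3 and Krt7 rose by 1.86 (SE 0.22), 1.78 (SE 0.25) and 1.53 (SE 0.27). Krt19 is also in the list of estrogen-induced genes and counts among those that rose there, so the 2 lists are not separate. Other markers of the list did not follow: Cldn3 changed by -0.47 (SE 0.20), Cldn4 by -0.11 (SE 0.10), Krt18 by 0.11 (SE 0.17) and Prom1 by 0.04 (SE 0.24), none past the threshold and named after their values were seen. Of 15 markers of stratified squamous epithelium, the tissue best known for Padi1 and Padi3, 4 rose, none fell and 11 did not pass (median change 0.17), with Krt13 up by 0.43 (SE 0.11), Ivl by 0.25 (SE 0.06) and Krt4 by 0.22 (SE 0.05). Its list mean was 7.11 to 7.21 in controls and 7.22 to 7.39 in deleted uteri, below the array medians of 8.25 to 8.32. Whether these probe sets lie above background is unknown. The defining factor gene of this epithelium, Trp63, changed by 0.05 (SE 0.04, adjusted p = 0.479, limma), named after its values were seen. Of 11 smooth muscle markers 10 did not pass and 1 rose, Actg2 by 0.51 (SE 0.13, adjusted p = 0.0449, limma). The smooth muscle mean lay 0.50, 0.18, 0.29 and -0.02 from the control mean in deleted replicates 1 to 4, where Ckb lay at 0.45, 0.21, 0.09 and -0.25. None of 10 skeletal muscle markers, 13 neuron and nerve markers or 9 ovary and oviduct markers passed. The part of epithelial, squamous or muscle content in these changes was not tested.

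The profiles most like those of the 5 genes were sought among all genes by the root mean square difference of the control-centred log2 values over the 8 arrays. Nearest to Padi1 were Ccl28, a mucosal chemokine gene, at 0.20, the complement factor B gene Cfb at 0.25 and the phosphate transporter gene Slc34a2 at 0.25. Nearest to Padi2 were Bcl2l15 at 0.11, the mucin gene Muc20 at 0.18 and the retinol dehydrogenase gene Dhrs9 at 0.19. Padi4 was nearest to Galnt3, which encodes an enzyme that starts mucin-type glycosylation, at 0.08, and to Serinc2 and Plch1 at 0.09 each. Greb1 was nearest to Tmem200a at 0.08 and to the AMP deaminase gene Ampd3 and the retinaldehyde dehydrogenase gene Aldh1a2 at 0.09 each. Alpl was nearest to Apobec2 at 0.25, the cornified envelope gene Sprr2b at 0.26 and the serine protease gene Tmprss11d at 0.29. Among the 8 genes themselves, the closest pairs of those that rose were Padi4 with Greb1 at 0.31 and Padi1 with Padi2 at 0.33. The measure takes in the size of the change, so genes with increases of like size come out close. Padi4 and Greb1 differed in their order over the deleted uteri, with Padi4 highest in replicate 3 and Greb1 in replicate 1. The root mean square differences describe likeness in these arrays and carry no test.

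Across the series the 8 arrays had medians from 8.25 to 8.32. The stroma and smooth muscle lists had means of 11.69 to 11.70 and 11.33 to 11.51 in controls, which as array levels do not measure how much of each tissue was present. Of 10 gland markers 5 fell and 1 rose, with list means of 8.68 to 9.11 in controls and 7.52 to 7.87 in deleted uteri. The list includes Foxa2, the deleted gene, which is 1 of the 5 that fell and enters these means. Of the endothelium and the NK and T cell markers 8 of 12 and 7 of 12 fell, of 12 stroma markers 1 fell, and of 11 macrophage and 7 fat cell markers 1 each rose. Over all genes 6.58% were called lower and 4.5% higher. The mean of the fat cell list ran from 8.45 to 10.07 in controls and 9.42 to 10.65 in deleted uteri.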

How the data were processed

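Total RNA of 8 whole uteri (150 ng each) was labelled with biotin for Affymetrix whole-transcript arrays, 1 array per mouse and none pooled, per the labels' protocols. The deposited values are log2 intensities made by the authors with RMA, which removes background, normalises between arrays and summarises probes, per the submitters' processing notes, which also name limma; no source used here gives versions, genome build or probe annotation. The number of arrays limits the precision. Of 35556 probe sets, 21789 had 1 gene symbol in the platform annotation held by GEO, 1621 several and 12146 none. The probe set with the highest mean stood for each of 19938 genes, of which 19856 matched the RefSeq table of GRCm38.p6 by gene identifier, used for names, gene order and promoter stretches only.

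Changes were fitted with lmFit and eBayes in limma 3.58.1 (R 4.3.3) over all genes, with genotype as the sole term and Benjamini-Hochberg adjustment, and called at an adjusted p under 0.05. SE values are those of the moderated fit. In simulated arrays of 19938 genes for this comparison, 89% of genes changed 1.5-fold, 88% changed 2-fold and 100% changed 4-fold were called, with 17 unchanged genes called. Both groups were simulated with the same SD for each gene. The wider spread of the deleted uteri in the genes that rose was not simulated, so these rates may not hold for them. The 8 genes and the 21 lists were chosen with earlier results of these data known. Named are the 8 genes, Foxa2 and Pgr, up to 3 called genes per list by smallest p (the 1 smallest where none was called), all genes of the deiminase, creatine and galanin lists, the 4 tested genes on each side of the Padi cluster, and the 3 genes most like each of the 5 that rose. Other names are marked. List counts and means leave out the 8 genes. Alternatives covered scaling, filters on dim genes, probe set choice, moderation, array weights, a replicate block, single arrays left out and exact permutation tests.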

Additional observations from a re-analysis of the deposited data

Results flagged for a closer look

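In 20 groups of 4 values, those of the 8 genes, Foxa2 and Pgr in each genotype, 2 held a single sample far from the others by Dixon's criterion, and chance alone marks about 1 in 20. Alpl stood at 12.36 in Foxa2-deleted replicate 3, against 10.75 to 10.92 in the other deleted uteri. Padi2 stood at 8.58 in control replicate 1, against 8.89 to 8.94 in the other controls. No cause was tested for either.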

How the results depend on the processing

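Without any 1 array the number of the 8 genes called higher ran from 4 to 6, and none was called lower. Padi4 was the gene lost, without control replicate 2, 3 or 4, and Padi3 the gene gained, without Foxa2-deleted replicate 4. Changes without any 1 array ran from 2.07 to 2.63 for Padi1, 1.68 to 2.23 for Padi2, 0.15 to 0.23 for Padi3, 1.06 to 1.54 for Padi4, 1.0 to 1.33 for Greb1, 0.06 to 0.11 for Gal, 0.02 to 0.25 for Ckb and 2.69 to 3.23 for Alpl. With array weights Padi3 passed (0.19, adjusted p = 0.04997, limma). Filtering out the lower 50% of genes left Padi3, Padi4 and Gal untested, and filtering out the lowest 25% left Gal untested. No other call changed among those of the 8 genes tested under 3 further scalings, the filters, the other probe set rules, trended robust moderation or single exact permutation tests.

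The count of all genes called higher (898) became 533 with the lower 50% of genes left out, where fewer genes were tested, and 1351 with array weights, a change whose cause was not tested. Leaving out single arrays gave 196 to 1374 higher, 348 to 1777 lower and 556 to 3059 in either direction. Same-numbered uteri of the genotypes did not deviate together (correlations from -0.05 to 0.06), so the replicate numbers were not taken as pairs. With the replicate block 435 genes were called higher, 627 lower and 1062 in all, and the same 5 of the 8 genes were called (adjusted p up to 0.0360 for Padi4). The differences of change between Padi genes kept their direction without any 1 array, from 0.34 to 0.51 for Padi1 minus Padi2, the smallest, and with the replicate block, where 4 pairs cannot give a p below 0.125. Without detection calls, a signal near background cannot be told from expression.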
